A study of Mus musculus with 12 samples.

Results

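The comparison described here asked whether loss of CD25, the subunit that gives the receptor for interleukin-2 its high affinity, changed gene expression by the same amount in the central and in the effector gate of mouse regulatory T cells. For each gene the change between knockout (KO) and wild type (WT) effector cells was set against the change between KO and WT central cells, and the difference between these 2 changes is called the interaction. It was taken on the log2 scale, where it compares folds, and on the linear scale of CPM, where it compares differences in level. CPM are counts relative to the library total after scaling by TMM factors. They are relative levels, and RNA per cell was not measured. All 12 libraries of the series entered the comparison, 3 in each of 4 groups, and 12461 of 24421 gene symbols passed the filter on low counts. An interaction below 0 means that KO effector cells moved less far up, or further down, than KO central cells.

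The libraries are bulk RNA-seq of Foxp3-reporter regulatory T cells from spleen and lymph nodes, each pooled from 2 to 3 mice. Live CD4+ cells were sorted on the GFP of the Foxp3 allele and on a tdTomato reporter, which marks cells in which Cre had acted. Central Tregs (cTregs) were taken as CD62L-high and effector Tregs (eTregs) as CD62L-low cells, and KO cells were in addition taken as CD25-low. The genotype labels name a floxed CD25 allele in one genotype and CD25WT/WT in the other, together with R26tomato and Foxp3eGFPERT2 in both, so that tamoxifen acts in cells that express Foxp3. Both genotypes received tamoxifen at 2 mg/kg intraperitoneally for 5 days and were harvested 10 days after induction. The age and sex of the mice were not given in the sources used here.

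The labels do not agree among themselves. The sample titles and the cell type labels give the same WT and KO groups, but the genotype label of the WT-titled libraries reads CD25FL/FL-R26tomato+/+-Foxp3eGFPERT2+/+ and that of the KO-titled libraries names CD25WT/WT. Groups were taken from the titles. Il2ra, which encodes CD25 (ENSMUSG00000026770.5, chr2:11642807-11693193, mm10), stood at 576, 523 and 580 CPM in the 3 WT cTreg libraries, at 122, 112 and 113 in KO cTregs, at 464, 562 and 542 in WT eTregs, and at 125, 116 and 131 in KO eTregs. All 6 KO-titled libraries lay below all 6 WT-titled ones, so Il2ra goes with the titles and against the genotype label. The KO cells were also gated on CD25, so this check partly repeats the sort.

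Interleukin-2 is a growth and survival factor for regulatory T cells. CD25 joins the beta and common gamma chains, whose kinases phosphorylate STAT5, and STAT5 dimers bind a palindromic DNA pattern near target genes such as Il2ra, Cish and Socs2. Central Tregs resemble resting T cells and recirculate through lymphoid organs, whereas effector Tregs have met antigen, carry inhibitory and tissue-homing receptors, and make more of the suppressive products for which the lineage is known.

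Counts per library summed to between 14567313 and 19121577. Sequencing reads assigned to Rn45s, the ribosomal RNA precursor, took 22.4% to 24.4% of the counts in WT cTregs, 18.1% to 18.5% in KO cTregs, 4.11% to 4.34% in WT eTregs and 3.19% to 3.32% in KO eTregs. Summed markers of B cells ranged from 15.6 to 19.6 CPM in WT cTregs, 9.93 to 12.9 in KO cTregs, 20.2 to 21.7 in WT eTregs and 11.8 to 16.1 in KO eTregs, mostly from Cd79b and Bank1, with Ms4a1 and Pax5 near 0. Myeloid markers summed to 16.4 CPM or less in every library. In bulk libraries fewer cells of a kind and less RNA per cell cannot be told apart, and this holds for every value given here.

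The response to CD25 loss was larger in the central gate. In cTregs 1847 genes rose (14.8% of those tested) and 1574 fell (12.6%), whereas in eTregs 405 rose (3.25%) and 424 fell (3.4%), by edgeR's quasi-likelihood test at a Benjamini-Hochberg adjusted p under 0.05. The interaction itself was called for 474 genes on the log2 scale, 374 lower (3%) and 100 higher (0.803%). Of the 374 lower genes, 281 had risen in cTregs without a call in eTregs, 75 had risen in both gates, 7 had risen in cTregs and fallen in eTregs, and 9 had fallen in eTregs alone. Of the 100 higher genes, 69 had fallen in cTregs without a call in eTregs and 25 had fallen in both. Among the 3421 genes called in cTregs the log2 change was the larger one there for 3261 (95.3%), and among the 829 called in eTregs it was larger in eTregs for 278 (33.5%). The median log2 change over all tested genes was 0.001 in cTregs and 0.007 in eTregs. Leaving out single libraries moved the count of eTreg calls to 455 (without WT eTreg replicate 2), 497 (without WT eTreg replicate 3) and 462 (without KO eTreg replicate 3), and that of higher interactions to 60 (without KO cTreg replicate 2) and 62 (without KO eTreg replicate 3).

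To separate functions that responded in one gate from those that responded by the same fold, each gene was classed by its intervals. A gene was cTreg-only when it was called in cTregs and not in eTregs and its interaction was called. The 95% interval of its eTreg change also had to lie within 1.5-fold of no change. A gene was same-fold when it was called in both gates in one direction, its interaction was not called and the interval of the interaction lay within 1.5-fold. By these rules 188 genes rose (1.51%) and 58 fell (0.465%) only in cTregs, and 180 rose (1.44%) and 225 fell (1.81%) by the same fold. A further 100 genes changed in both gates in one direction with a larger fold in cTregs, 75 of them upward, and no gene had a larger fold in eTregs. The eTreg-only class held 6 genes and the class of opposite directions held 9. The remaining 2816 genes with a call in at least 1 gate were undetermined, 2507 of them called in cTregs alone. They met the rules of no class, for want of a call or because an interval was too wide. The interaction was called for 109 of them. The class of same-fold rises fell to 106, 115 and 109 genes, that of same-fold falls to 115, 114 and 108, and that of larger folds in cTregs to 54, 49 and 53 on leaving out replicate 2 of WT eTregs, replicate 3 of WT eTregs and replicate 3 of KO eTregs, in that order. Other single libraries moved a class by more than 1.5 times in these cases: same-fold falls to 144 and larger folds in cTregs to 66 without KO eTreg replicate 1, larger folds in cTregs to 58 without WT eTreg replicate 1, and cTreg-only falls to 35 without KO cTreg replicate 2, to 35 without KO eTreg replicate 3 and to 91 without KO eTreg replicate 2.

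**Figure D1:**
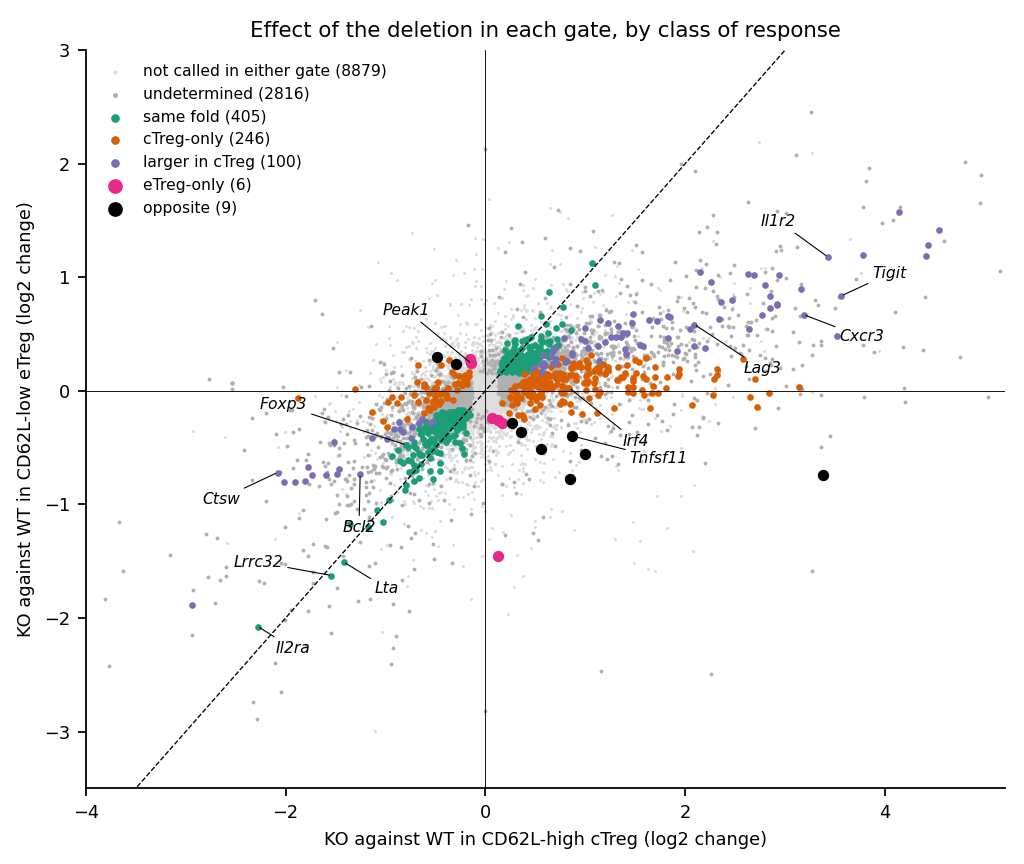
Each point is 1 of the 12461 tested genes, with the log2 change between KO and WT in cTregs on the x axis and in eTregs on the y axis, coloured by class; 14 genes lie outside the axes. Genes that rose or fell only in cTregs spread along the horizontal axis and the 405 same-fold genes follow the diagonal. The 4 eTreg-only falls and 2 eTreg-only rises lie beside the vertical axis, at median log2 changes in cTregs of 0.13 and -0.145.

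Transcription factors of the effector program mostly rose by larger folds in the central gate. Of 18 tested members of this list, 16 rose and 0 fell in cTregs, 8 rose and 1 fell in eTregs, and 13 had a lower interaction. The median log2 change of the list was 1.22 in cTregs and 0.41 in eTregs. In linear CPM 3 members had a lower and 0 a higher interaction, with a median of -5.28 CPM. Irf4, Ahr, Gata3 and Rora rose only in cTregs, and Batf, Hif1a, Nfil3, Prdm1, Runx2 and Tbx21 rose in both gates with a larger fold in cTregs.

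Irf4 (chr13:30749226-30766976), a factor induced through the antigen receptor that is needed for effector Treg differentiation, stood at 67.1, 72.7 and 69.6 CPM in WT cTregs, at 118, 131 and 126 in KO cTregs, at 139.9, 186 and 158 in WT eTregs, and at 157, 166 and 170.4 in KO eTregs. The KO and WT libraries did not overlap in cTregs, and in eTregs they did. Its log2 change was 0.84 ± 0.08 (SE) in cTregs and 0.03 in eTregs, with a 95% interval in eTregs of -0.14 to 0.20, and the interaction was -0.82 ± 0.12 (edgeR adjusted p 0.000863). Ahr, a ligand-activated factor chosen after its values were seen, followed the same course, with 25.2, 24.2 and 22.5 CPM in WT cTregs, 43.5, 52.2 and 45.0 in KO cTregs, 102, 130.3 and 122 in WT eTregs and 100.4, 98.7 and 109 in KO eTregs. Its interaction was -1.17 ± 0.13 (edgeR adjusted p 0.000129), and the 3 KO cTreg libraries lay between those of WT cTregs and WT eTregs. For Gata3, also chosen after its values were seen, the interaction was smaller, at -0.44 ± 0.08 (edgeR adjusted p 0.00569).

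Prdm1, which encodes Blimp-1, a repressor that marks differentiated effector Tregs, rose in both gates. It stood at 12.9, 12.2 and 9.14 CPM in WT cTregs, 37.6, 42 and 43.7 in KO cTregs, 50.1, 58.1 and 66.9 in WT eTregs, and 84.2, 91.2 and 98.8 in KO eTregs. The groups did not overlap within either gate. The fold was 3.6 in cTregs and 1.57 in eTregs, and the interaction was -1.20 ± 0.17 (edgeR adjusted p 0.00153). Tbx21, which encodes T-bet, rose 6.83-fold in cTregs and 1.59-fold in eTregs, with an interaction of -2.10 ± 0.25 (edgeR adjusted p 0.000176). Maf, a factor of follicular and IL-10-producing T cells, rose from a mean of 44.1 ± 13.4 (SD, n = 3) to 174.5 ± 5.54 CPM in cTregs, while its eTreg means were 391 ± 24 in WT and 476 ± 15.4 in KO (edgeR adjusted p 0.324). Its interaction was -1.70 ± 0.21 (edgeR adjusted p 0.00209), but the eTreg interval of -0.04 to 0.60 reached past 1.5-fold, so that Maf was left undetermined. Bhlhe40 was the member of the list that rose by the same fold, with log2 changes of 0.86 and 0.54 and an interaction of -0.33 whose 95% interval, -0.53 to -0.12, left out 0 (edgeR adjusted p 0.0714). That interaction was called with a replicate block over the 12 libraries (adjusted p 0.0417), with library size without Rn45s (0.0418), without a filter on low counts (0.0454), without WT cTreg replicate 1 (0.0304) and without KO eTreg replicate 1 (0.0417), so that it left the same-fold class there.

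Inhibitory receptors and suppressive products behaved like the effector factors on the log2 scale. The gene lists share members: Il1r2 stands among suppressive products, follicular genes and other cytokine receptors. Of 13 inhibitory receptors, 9 rose in cTregs and 4 in eTregs, none fell, and 6 had a lower interaction. Among these 6, the calls of Cd22 and Klrg1 were lost in 12 and 11 of 21 alternatives. Of 17 suppressive products, 12 rose and 2 fell in cTregs, 6 rose and 2 fell in eTregs, and 7 had a lower interaction. In linear CPM 1 inhibitory receptor was higher and 1 lower, with a median of -3.81 CPM. For suppressive products 2 were higher and 1 lower, with a median of 0.27 CPM. Tigit (chr16:43648867-43664146), an inhibitory receptor that is abundant on effector Tregs, stood at 5.29, 5.05 and 5.38 CPM in WT cTregs, 62.0, 64.7 and 59.3 in KO cTregs, 110.5, 101 and 108 in WT eTregs, and 195, 191 and 184 in KO eTregs. The 4 groups did not overlap. It rose 11.8-fold in cTregs and 1.79-fold in eTregs, and the interaction was -2.73 ± 0.09 (edgeR adjusted p 1.05e-11).

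Lag3, a receptor for MHC class II that was chosen after its values were seen, rose 4.27-fold in cTregs and 1.5-fold in eTregs (interaction -1.51 ± 0.20, edgeR adjusted p 0.000834). Pdcd1, which encodes PD-1 and was also chosen after its values were seen, had an interaction of -0.83 ± 0.18 (edgeR adjusted p 0.0273). That call was lost on leaving out replicate 3 of WT cTregs, 1 or 2 of KO cTregs, 3 of WT eTregs, or any of the KO eTreg libraries, where the adjusted p reached 0.074. Il10, a suppressive cytokine, and Ctla4, a costimulation blocker, were undetermined. Markers of CD8 T and NK cells summed to 13.8 to 17.1 CPM in WT cTregs, 22.6 to 27.2 in KO cTregs, 7.57 to 10.8 in WT eTregs and 7.68 to 22.1 in KO eTregs, with Cd8a under 1 CPM. Most of the sum came from Eomes and Cd8b1 in all libraries but KO eTreg replicate 2, which sets the highest eTreg value. There Klrb1c, which encodes the NK cell receptor NK1.1, stood at 11.4 CPM, against 1.85 or less in the other libraries. Nkg7, a cytotoxic granule gene, was at 19.06 CPM in that library, its highest value among eTregs, and its interaction was -1.97 ± 0.45 with it (edgeR adjusted p 0.0396) and -2.24 ± 0.41 without it (edgeR adjusted p 0.0112). The call of Nkg7 was lost in 9 of 21 alternatives, among them limma-voom (adjusted p 0.0898) and other left-out libraries (adjusted p of up to 0.115). The part of these cells in the rises was not tested.

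**Figure D2:**
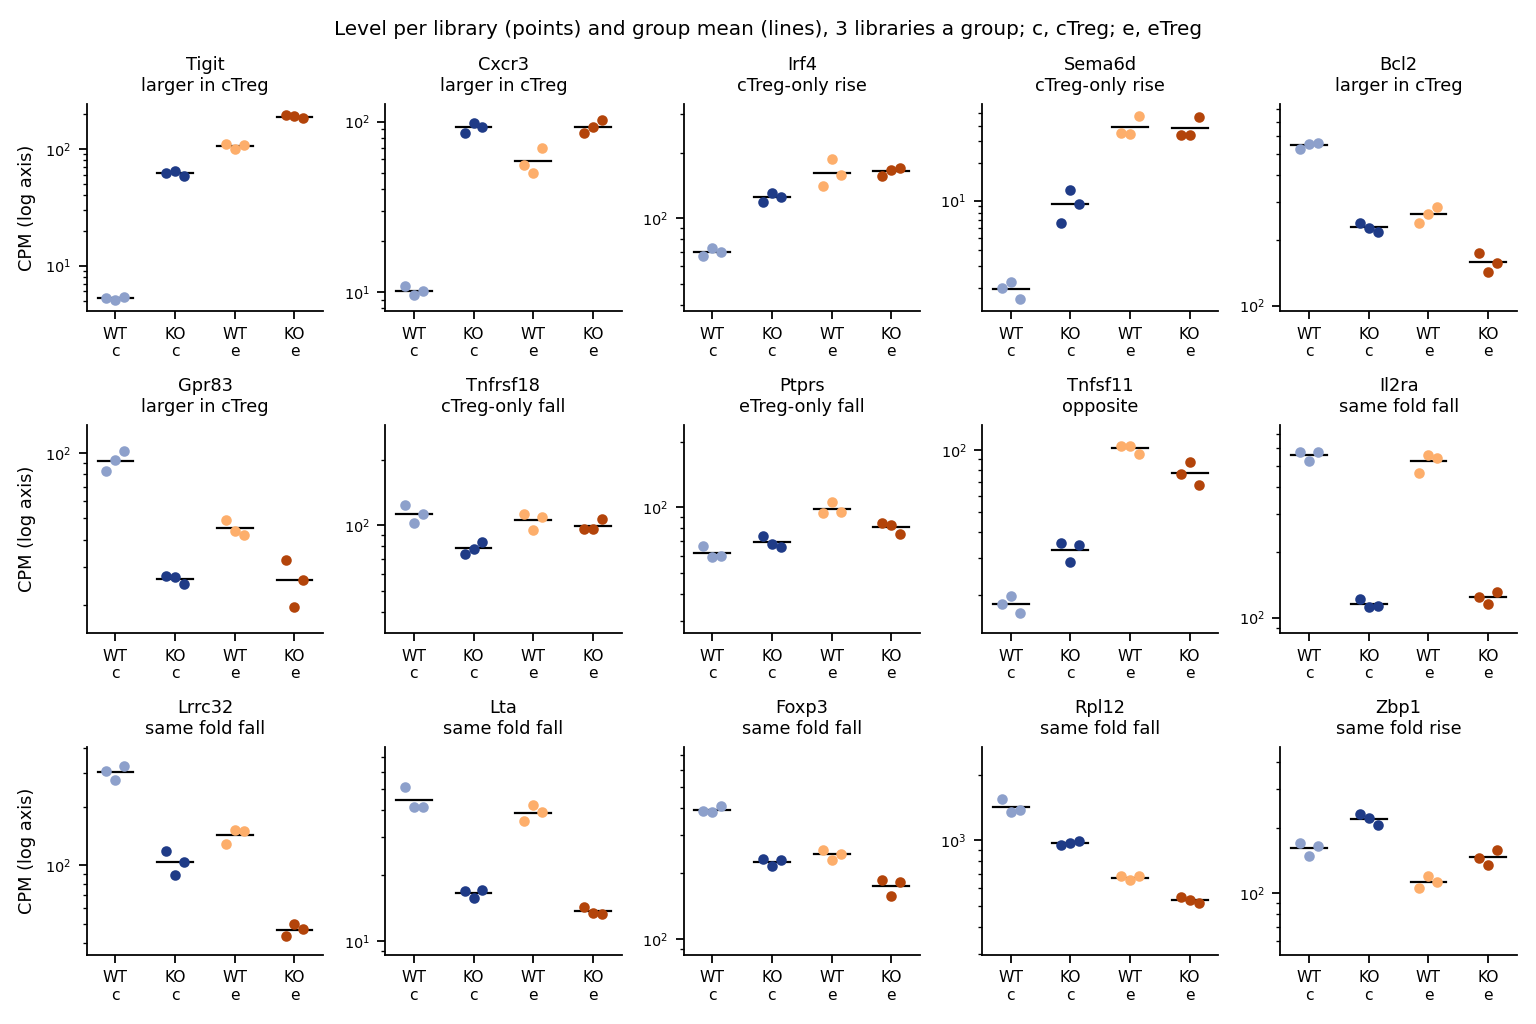
CPM on a log axis for 15 genes in the 12 libraries, 1 point per library and a line at each group mean, with WT and KO of each gate side by side. For Tigit, Cxcr3 and Irf4 the step from WT to KO is larger in cTregs, for Ptprs it was called only in eTregs, for Tnfsf11 the steps run in opposite directions, and for Il2ra, Lta, Lrrc32 and Zbp1 they are of like size.

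Follicular T cell genes also rose by larger folds in the central gate. Of 15 tested, 14 rose in cTregs and 6 in eTregs, none fell, and 10 had a lower interaction, with median log2 changes of 1.93 and 0.60. In linear CPM 2 had a higher and 1 a lower interaction, with a median of 2.14 CPM. By class 1 was cTreg-only and 8 were undetermined. Il1r2, a decoy receptor for interleukin-1 carried by activated Tregs and follicular Tregs, stood at 2.09, 1.87 and 0.922 CPM in WT cTregs, 19.7, 20.7 and 12.3 in KO cTregs, 45.7, 45.5 and 42.3 in WT eTregs, and 99.9, 107 and 95.8 in KO eTregs. The groups did not overlap in either gate. The log2 changes were 3.43 ± 0.26 and 1.18 ± 0.14, with an interaction of -2.25 ± 0.32 (edgeR adjusted p 0.00221). Cebpa, a further member, had log2 changes of 3.30 and 0.80, the latter with an edgeR adjusted p of 0.0573, and an interaction of -2.50 ± 0.42 (edgeR adjusted p 0.00695). Icos, a costimulatory receptor of follicular and effector T cells, rose 3.82-fold in cTregs and had a fold of 1.31 in eTregs (edgeR adjusted p 0.253), with an interaction of -1.54 ± 0.25 (edgeR adjusted p 0.0102).

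Chemokine receptors for inflamed tissue were part of the same pattern. Of 21 genes of chemokine reception and homing, 13 rose and 2 fell in cTregs, 4 rose and 3 fell in eTregs, and 7 had a lower interaction. Cxcr3, a receptor of T-bet-expressing cells for interferon-induced chemokines (chrX:101731535-101734269), stood at 10.8, 9.59 and 10.1 CPM in WT cTregs, 85.9, 98.3 and 93.3 in KO cTregs, 55.9, 49.9 and 70.3 in WT eTregs, and 85.2, 93.1 and 102 in KO eTregs. KO cTregs reached the level of KO eTregs and lay above all WT eTreg libraries. The log2 changes were 3.19 ± 0.13 and 0.67 ± 0.11, with an interaction of -2.52 ± 0.17 (edgeR adjusted p 6.28e-06). Cxcr6, a receptor of tissue-resident T cells, had log2 changes of 3.17 ± 0.40 in cTregs and 0.23 in eTregs, the latter with an edgeR adjusted p of 0.624, and an interaction of -2.94 ± 0.47 (edgeR adjusted p 0.00669), which limma-voom did not call (adjusted p 0.098). Ccr7, the receptor for lymph node homing, went the other way and is described with the same-fold genes.

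Costimulation and adhesion genes were divided. Of 19 costimulatory molecules and TNF receptor relatives, 9 rose and 7 fell in cTregs, 0 rose and 5 fell in eTregs, 7 had a lower and 1 a higher interaction. Cd28, Cd40lg, Tnfrsf1b and Tnfsf14 rose only in cTregs. Tnfsf14, which encodes LIGHT, had an interaction of -1.44 ± 0.22 (edgeR adjusted p 0.0021), with a fold of 2.44 in cTregs and 0.899 in eTregs. Lta, Tnf and Tnfrsf25 fell by the same fold. Of 20 integrins and adhesion genes, 11 rose and 1 fell in cTregs, 5 rose and 2 fell in eTregs, and 6 had a lower interaction. Itgb1, the integrin beta1 chain, averaged 395 CPM in WT cTregs, 1306 in KO cTregs, 1052 in WT eTregs and 1329 in KO eTregs, with an interaction of -1.39 ± 0.22 (edgeR adjusted p 0.00641). Cd44, a hyaluronan receptor of activated T cells chosen after its values were seen, rose only in cTregs (interaction -0.67 ± 0.13, edgeR adjusted p 0.00715), whereas Cd9, Icam1, Itgav and Itgb8 rose by the same fold.

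Of the S100, annexin and galectin genes, which mark antigen-experienced and migrating T cells, 12 of 16 rose in cTregs and 0 were called in eTregs. The interaction was called, and lower, for 3 of them (7 with the eTreg libraries paired, 10 with a replicate block over the 12 libraries), and 11 of the 16 were undetermined. S100a11 averaged 22.2 CPM in WT and 82.9 in KO cTregs, and 80.3 and 99.0 in eTregs, with an interaction of -1.60 ± 0.22 (edgeR adjusted p 0.00323). Nfatc1, a factor activated by calcium signalling from the antigen receptor, was the member of the receptor signalling list that rose only in cTregs (interaction -0.54 ± 0.07, edgeR adjusted p 0.000415), while Malt1, Ptpn22, Fyn, Nfkb2 and Themis rose by the same fold.

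Most genes with a lower interaction were more abundant in WT eTregs than in WT cTregs. For 348 of the 374 the WT eTreg mean was above the WT cTreg mean, against 6233 of all 12461 tested genes (50%). This comparison uses the WT libraries that also enter the interaction, so it is given as a description only. Among the 12 lowest interactions named by rule were also Asb2, Angptl2, Sema6d and Plekhg3. Sema6d, a semaphorin, stood at 2.01, 2.24 and 1.61 CPM in WT cTregs, 6.67, 12.2 and 9.37 in KO cTregs, 35.1, 34.2 and 47.7 in WT eTregs, and 33.7, 33.6 and 46.8 in KO eTregs. The eTreg groups overlapped throughout, and the KO cTreg libraries stayed below every eTreg library (interaction -2.31 ± 0.39, edgeR adjusted p 0.007). The call was lost by limma-voom (adjusted p 0.0684).

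Genes that fell further in the central gate included survival and Treg identity genes. The 100 higher interactions held 25 genes that fell in both gates and 69 that were called only in cTregs, and for 75 of the 100 the WT cTreg mean was above the WT eTreg mean. Bcl2 (chr1:106538178-106714274), an inhibitor of mitochondrial apoptosis, stood at 527, 552 and 559 CPM in WT cTregs, 241, 228 and 218 in KO cTregs, 239.6, 264 and 285 in WT eTregs, and 175, 142 and 158 in KO eTregs. The groups did not overlap in either gate, and KO cTregs came down to the lower edge of the WT eTreg range. The log2 change was -1.25 ± 0.07 in cTregs and -0.73 ± 0.07 in eTregs, and the interaction was 0.52 ± 0.10 (edgeR adjusted p 0.00669).

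Other genes that act in apoptosis moved in both directions. Of 17 BCL-2 family genes, 5 rose and 1 fell in cTregs, 3 rose and 2 fell in eTregs, 2 had a lower and 1 a higher interaction. Bcl2a1d, an antiapoptotic relative, rose 2.99-fold in cTregs and 1.31-fold in eTregs (interaction -1.19 ± 0.19, edgeR adjusted p 0.00177), and reads of Bcl2a1d and Bcl2a1b may be split, since the genes are near-identical copies. Of 20 caspases and death receptor genes, 4 rose and 2 fell in cTregs, and 5 rose and 0 fell in eTregs. Of all tested genes 14.8% rose and 12.6% fell in cTregs, and 3.25% rose and 3.4% fell in eTregs. The interaction of Casp4, an inflammatory caspase, was -0.77 (edgeR adjusted p 0.0178). Casp8, the initiator of death receptor signalling, fell only in cTregs, from a mean of 234 to 164 CPM, against 179.5 and 163 in eTregs (interaction 0.37 ± 0.07, edgeR adjusted p 0.00315).

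Of 21 Treg identity genes, 4 rose and 9 fell in cTregs and 1 rose and 6 fell in eTregs, with 3 higher (5 with the eTreg libraries paired) and 1 lower interaction. Ikzf4, which encodes the Foxp3 partner Eos, stood at 186, 171 and 191 CPM in WT cTregs, 103, 97.5 and 99.6 in KO cTregs, 183, 194 and 179 in WT eTregs, and 169, 132 and 159 in KO eTregs. The WT ranges of the 2 gates overlapped, and KO cTregs fell below every other library. The fold was 0.547 in cTregs and 0.828 in eTregs, with an interaction of 0.60 ± 0.11 (edgeR adjusted p 0.00333). Gpr83, a G protein-coupled receptor of Tregs, had folds of 0.285 and 0.576 and an interaction of 1.01 ± 0.21 (edgeR adjusted p 0.0177), and its call was lost on leaving out replicate 2 or 3 of KO cTregs, replicate 2 of WT eTregs or replicate 3 of KO eTregs, where the adjusted p reached 0.0606. Tnfrsf18, which encodes GITR, fell only in cTregs (interaction 0.43 ± 0.11, edgeR adjusted p 0.0387), and its call was lost on leaving out replicate 1 or 3 of WT cTregs, 1 or 2 of KO cTregs, 2 or 3 of WT eTregs, or 3 of KO eTregs, where the adjusted p reached 0.107.

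The highest interaction named by rule was that of Ctsw, which encodes cathepsin W, a protease of cytotoxic lymphocytes. It stood at 113, 91.5 and 119 CPM in WT cTregs, 25.2, 24.8 and 26.3 in KO cTregs, 26.5, 42.7 and 34.9 in WT eTregs, and 19.0, 21.8 and 22.7 in KO eTregs. KO and WT libraries did not overlap in either gate, and KO cTregs lay just above KO eTregs. The log2 change was -2.08 ± 0.16 in cTregs and -0.72 ± 0.16 in eTregs, and the interaction was 1.36 ± 0.22 (edgeR adjusted p 0.00557). Lamp1, a lysosomal membrane protein, and Il10rb, a subunit of the interleukin-10 receptor, fell only in cTregs, with interactions of 0.40 ± 0.08 (edgeR adjusted p 0.00926) and 0.40 ± 0.07 (edgeR adjusted p 0.00439). Pecam1, an adhesion molecule of endothelium that naive T cells also carry, fell only in cTregs, from a mean of 269 to 202 CPM against 120 and 119 in eTregs (interaction 0.40 ± 0.09, edgeR adjusted p 0.012). The stromal and endothelial marker sum, of which Pecam1 was most, was 252 to 279 CPM in WT cTregs and 203 to 205 in KO cTregs.

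A response confined by these rules to the effector gate was found for 6 genes, among them Ptprs, Tnfsf10 and Sema4b downward and Vopp1 and Peak1 upward. The changes of these 5 genes in eTregs were small, from 0.821-fold for Ptprs to 1.22-fold for Vopp1. For the 4 falls of the class the median log2 change was -0.271 in eTregs and 0.13 in cTregs. For the 2 rises it was 0.262 in eTregs and -0.145 in cTregs, so uncalled cTreg changes of opposite sign enter these interactions. Ptprs (chr17:56412426-56476483), a receptor phosphatase, stood at 66.1, 59.3 and 59.5 CPM in WT cTregs, 74.1, 68.0 and 65.4 in KO cTregs, 93.7, 106 and 95.5 in WT eTregs, and 84.5, 82.8 and 75 in KO eTregs. The cTreg groups overlapped, and in eTregs KO lay below WT. The fold was 1.12 in cTregs (edgeR adjusted p 0.0896), and the interaction was -0.45 ± 0.10 (edgeR adjusted p 0.0118). Peak1, a pseudokinase, had folds of 1.18 in eTregs and 0.907 in cTregs (interaction 0.38 ± 0.08, edgeR adjusted p 0.0125). The call of Vopp1 was lost without WT cTreg replicate 3 (adjusted p 0.0525). The calls of Tnfsf10, the death ligand TRAIL, and of Sema4b were lost on leaving out replicate 1 or 3 of WT cTregs or 2 or 3 of KO cTregs (adjusted p of up to 0.0604 and 0.0894), and that of Sema4b also without replicate 1 or 3 of WT eTregs or of KO eTregs. With same-numbered eTreg libraries paired by a replicate block the class held 10 genes. It also held 10 genes without WT cTreg replicate 2, 10 without KO cTreg replicate 1, 12 without KO eTreg replicate 2 and 3 without KO eTreg replicate 3.

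Opposite changes in the 2 gates were called for 9 genes, 7 of which rose in cTregs and fell in eTregs. The members described were chosen after their values were seen. Tnfsf11 (chr14:78277445-78308043), which encodes the cytokine RANKL, stood at 18, 19.7 and 16.3 CPM in WT cTregs, 35.6, 28.7 and 34.6 in KO cTregs, 104, 105 and 95.9 in WT eTregs, and 76.5, 87.5 and 67.7 in KO eTregs. The KO groups of both gates thus lay between the WT groups. The fold was 1.82 in cTregs (edgeR adjusted p 3.87e-05) and 0.76 in eTregs (edgeR adjusted p 0.0163), with an interaction of -1.26 ± 0.14 (edgeR adjusted p 0.000171). Penk, the precursor of enkephalins, which Tregs of several tissues make, averaged 6.42 and 9.42 CPM in WT and KO cTregs and 130.6 and 91.6 in eTregs (interaction -1.07 ± 0.15, edgeR adjusted p 0.000476).

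Cd226, which encodes an activating receptor that shares ligands with Tigit, rose 1.28-fold in cTregs and fell to 0.777 of WT in eTregs (interaction -0.72 ± 0.10, edgeR adjusted p 0.000573). Ptger4, a prostaglandin E2 receptor, had folds of 1.2 and 0.822 (interaction -0.55 ± 0.10, edgeR adjusted p 0.00323). The 2 genes that fell in cTregs and rose in eTregs were Lpp, with folds of 0.713 and 1.23 (interaction 0.79 ± 0.12, edgeR adjusted p 0.00101), and Dennd4a, with folds of 0.814 and 1.18 (interaction 0.54 ± 0.10, edgeR adjusted p 0.00379). With the eTreg libraries paired the class of opposite directions held 14 genes, and it held 5 genes without KO cTreg replicate 3, 4 without WT eTreg replicate 1, 5 without WT eTreg replicate 3, 2 without KO eTreg replicate 1 and 4 without KO eTreg replicate 3.

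Of 8 genes of the IL-2 receptor, JAK and STAT5 list, 3 rose and 2 fell in cTregs, 1 rose and 1 fell in eTregs, 2 changed by the same fold and 3 were undetermined. The log2 change of Il2ra was -2.28 ± 0.07 in cTregs and -2.08 ± 0.07 in eTregs, and its interaction of 0.20 had a 95% interval of -0.01 to 0.42 (edgeR adjusted p 0.329). Il2ra is the deleted gene and KO cells of both gates were sorted as CD25-low. Its fall in both gates was thus largely set by the design and is no finding on the IL-2 receptor. For all 8 genes of the list the interval of the interaction lay within 1.5-fold, against 60.8% of all tested genes. The interaction was called for 0 of the 8, against 3% lower and 0.803% higher among all tested genes. Il2rb, the receptor's beta chain, chosen after its values were seen, had log2 changes of -0.39 in cTregs and -0.13 in eTregs, the latter with an edgeR adjusted p of 0.172, and an interaction of 0.26 whose interval was 0.10 to 0.42 (edgeR adjusted p 0.069). It was called without WT cTreg replicate 2 (adjusted p 0.0222) and by the DESeq2 Wald test (0.0122). Stat3 rose by the same fold, 1.14 and 1.22.

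Among 20 STAT5 feedback and target genes, 3 rose and 10 fell in cTregs, 3 rose and 8 fell in eTregs, and 3 had a higher and 1 a lower interaction. Lta, Socs1 and Pim2 changed by the same fold. Lta, which encodes lymphotoxin alpha (chr17:35203165-35205351), stood at 50.9, 41.2 and 41.1 CPM in WT cTregs, 16.9, 15.7 and 17.2 in KO cTregs, 35.4, 42.2 and 39.0 in WT eTregs, and 14.4, 13.4 and 13.2 in KO eTregs. The WT groups of the 2 gates overlapped, and in both gates KO lay below WT. The folds were 0.374 and 0.352, and the interaction of -0.09 ± 0.13 had an interval of -0.37 to 0.19 (edgeR adjusted p 0.782). Cish and Socs2, feedback inhibitors induced by STAT5, fell in both gates but stayed undetermined, with interactions of 0.48 (0.14 to 0.82, edgeR adjusted p 0.125) and 0.38 (0.09 to 0.67, edgeR adjusted p 0.151). The interaction of Cish was called with the eTreg libraries paired (adjusted p 0.00617), without KO eTreg replicate 2 (0.00425) and by the DESeq2 Wald test (0.032), and that of Socs2 without WT eTreg replicate 2 (0.0495). Myc, a growth regulator, fell to 0.351 and 0.476 of WT, with an interaction of 0.44 and an interval of -0.04 to 0.91 (edgeR adjusted p 0.344). Cish, Socs2, Myc and Socs1 were chosen after their values were seen.

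STAT5 dimers bind the pattern TTCNNNGAA, which reads the same on both strands. In RefSeq promoters (GRCm38.p6, 250 bases before to 50 after the start) it was found in 773 of 9220 tested genes with an entry (8.38%), in 15 of 163 same-fold falls (9.2%), 14 of 136 same-fold rises (10.3%) and 13 of 130 cTreg-only rises (10%). These shares are close to that of all promoters, and a match is a description of letters only. The promoters of Lta, a same-fold fall, and of Il1r2, which rose by a larger fold in cTregs, are shown because they hold the pattern, which is in capitals, among the genes with the largest changes of their kind. Lta lies at chr17:35205302-35205601 on the minus strand and holds 2 matches, and Il1r2 lies at chr1:40085843-40086142 on the plus strand and holds 1.
Lta: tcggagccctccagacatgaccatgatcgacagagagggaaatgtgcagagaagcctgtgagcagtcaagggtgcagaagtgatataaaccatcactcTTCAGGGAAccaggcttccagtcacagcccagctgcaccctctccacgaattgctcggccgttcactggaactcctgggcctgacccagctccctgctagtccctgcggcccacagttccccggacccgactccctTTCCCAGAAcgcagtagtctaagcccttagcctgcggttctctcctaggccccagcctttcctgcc
Il1r2: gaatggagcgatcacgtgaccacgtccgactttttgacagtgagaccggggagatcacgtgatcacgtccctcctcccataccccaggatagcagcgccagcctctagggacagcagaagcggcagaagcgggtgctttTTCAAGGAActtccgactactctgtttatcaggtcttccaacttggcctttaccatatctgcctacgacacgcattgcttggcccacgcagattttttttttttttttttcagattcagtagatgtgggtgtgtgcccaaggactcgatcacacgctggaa

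Same-fold falls among Treg identity genes were Il2ra (the deleted gene, whose product was gated on), Lrrc32, Foxp3 and Bach2. Lrrc32 (chr7:98489283-98502181), which encodes GARP, the surface docking receptor of latent TGF-beta, stood at 306, 274 and 325 CPM in WT cTregs, 118, 88.7 and 104 in KO cTregs, 129, 153 and 150 in WT eTregs, and 43.4, 49.6 and 46.8 in KO eTregs. The KO libraries were below the WT ones in both gates. The folds were 0.344 and 0.324, and the interaction was -0.09 ± 0.15 with an interval of -0.40 to 0.23 (edgeR adjusted p 0.822). Foxp3, the lineage factor, averaged 393 CPM in WT cTregs, 227 in KO cTregs, 244 in WT eTregs and 176 in KO eTregs. Its folds were 0.577 and 0.719, and its interaction of 0.32 had an interval of 0.13 to 0.50, which leaves out 0, although the edgeR adjusted p of 0.0519 missed the threshold. It passed with the eTreg libraries paired (0.0125), without a filter on low counts (0.0365), without KO eTreg replicate 2 (0.00631) and by the DESeq2 Wald test (0.0259), so the place of Foxp3 among the same-fold genes depends on the fit. Same fold therefore means a bounded difference and not equality: the interval left out 0 for 38 of the 180 same-fold rises and for 51 of the 225 same-fold falls, and the change was the smaller one in eTregs for 137 and 178 of them. Ikzf2, which encodes Helios and was chosen after its values were seen, rose by the same fold, 1.32 and 1.16, and Tcf7, chosen likewise, 1.34 and 1.24.

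Ribosomal protein genes fell in both gates. Of the 225 same-fold falls, 36 were among the 47 tested cytosolic ribosomal protein genes. No member had a called interaction on the log2 scale, against 3% lower and 0.803% higher among all tested genes. Their log2 changes ranged from -0.552 to -0.189 in cTregs and from -0.391 to -0.079 in eTregs, with medians of -0.355 and -0.215. The interaction was above 0 for 44 of the 47 and its interval left out 0 for 20. Rpl12 stood at 1553, 1352 and 1373 CPM in WT cTregs, 954, 970.0 and 994 in KO cTregs, 684, 653 and 683 in WT eTregs, and 547, 528 and 513 in KO eTregs. The 4 groups did not overlap, and the interaction was 0.20 ± 0.08 (edgeR adjusted p 0.175). Of 33 ribosome biogenesis genes, 28 fell and 0 rose in cTregs and 11 fell and 0 rose in eTregs, 10 fell by the same fold, and the interval lay within 1.5-fold for 30. The median changes of that list were -0.367 and -0.187. Rn45s fell to 0.719 of WT in cTregs and 0.776 in eTregs (interaction 0.11, interval -0.06 to 0.28, edgeR adjusted p 0.537), and since the libraries were depleted of ribosomal RNA, its level also depends on that step.

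For interferon response genes no difference between the gates was called. Such calls were rare among all tested genes (3% lower and 0.803% higher), so a list of this size may hold none. Of 36 type I interferon response genes, 17 rose and 1 fell in cTregs, 10 rose and 0 fell in eTregs, 0 had a called interaction, 8 were same-fold rises and 10 were undetermined. The interval of the interaction lay within 1.5-fold for 25 of the 36 (69.4%), against 60.8% of all tested genes. The list's medians were 0.234 in cTregs and 0.237 in eTregs. Zbp1, a sensor of nucleic acids (chr2:173206612-173218923), stood at 169.7, 148 and 164 CPM in WT cTregs, 231, 222 and 206 in KO cTregs, 106, 119 and 113 in WT eTregs, and 145, 135 and 158 in KO eTregs. KO and WT libraries did not overlap in either gate. The folds were 1.37 and 1.3, and the interaction of -0.08 had an interval of -0.28 to 0.13 (edgeR adjusted p 0.74). Among 16 guanylate-binding proteins and immunity-related GTPases, 12 rose in cTregs and 3 in eTregs (5 with the eTreg libraries paired), none fell, and the interval was within 1.5-fold for 13. With Rn45s left out of the library size and no TMM scaling, the interferon rises in eTregs numbered 7 and the same-fold rises of that list 5.

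**Figure D3:**
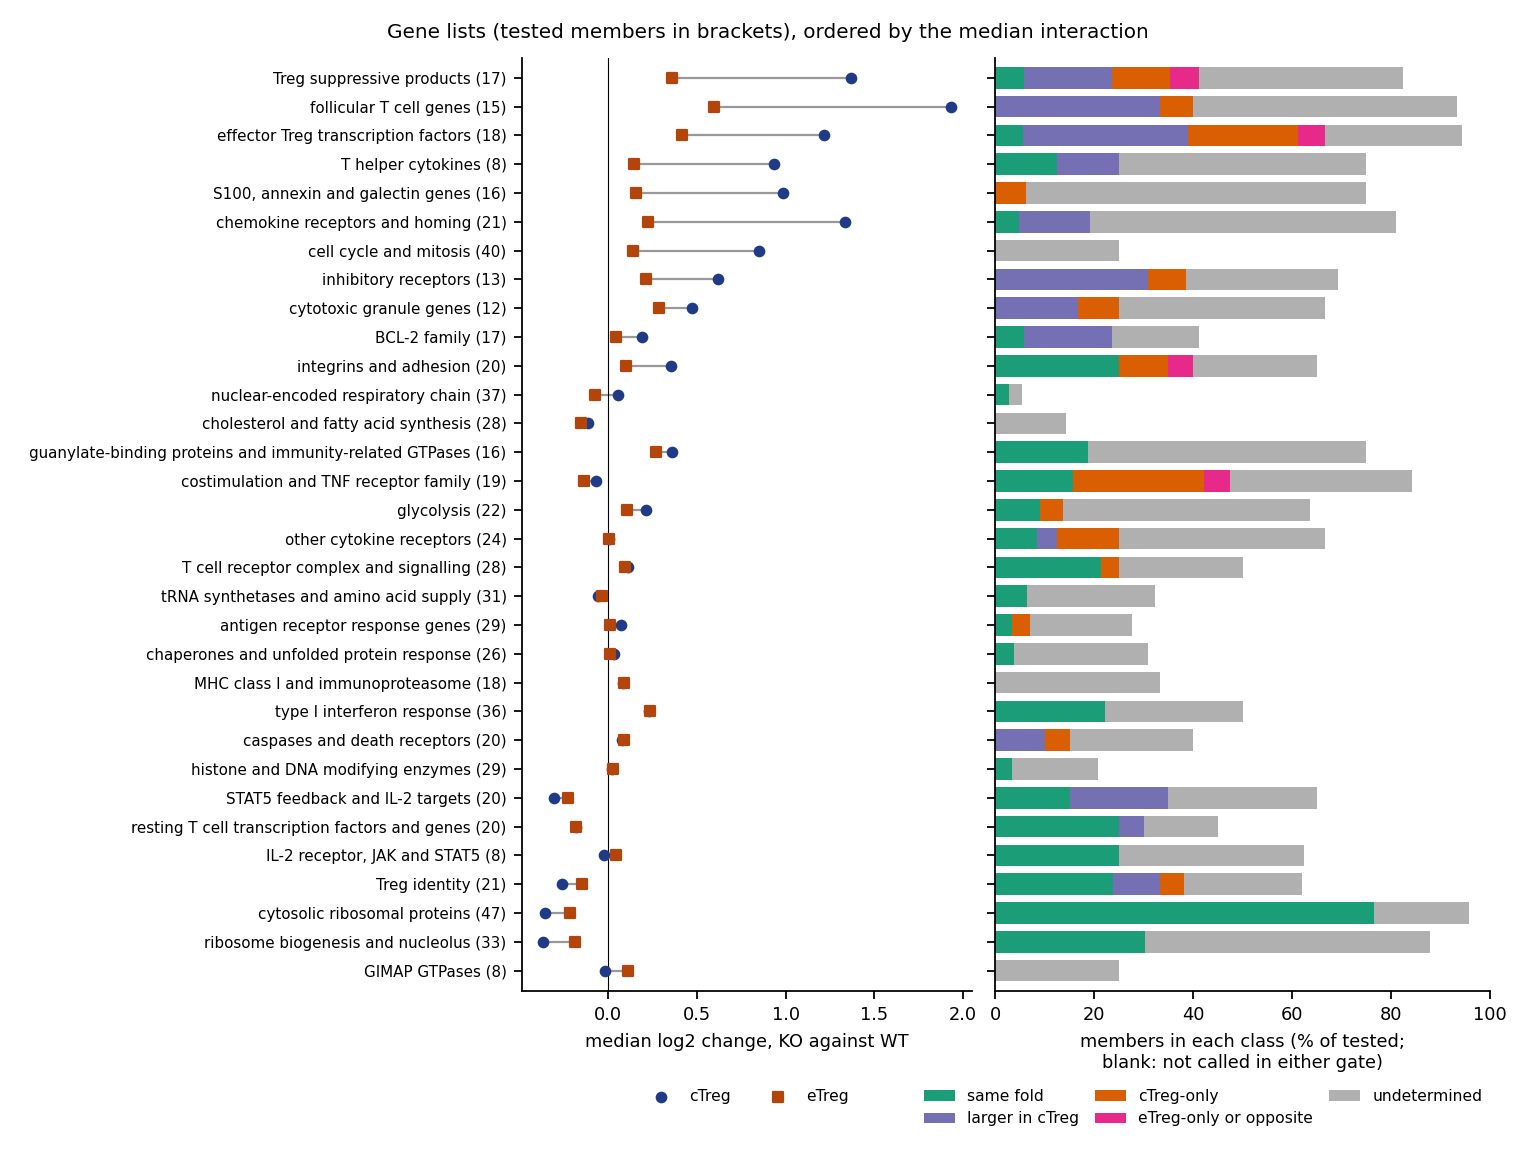
On the left, the median log2 change of each gene list in cTregs (circles) and eTregs (squares); on the right, the percentage of its tested members in each class, with lists ordered by their median interaction. Follicular genes, effector factors and suppressive products have circles far to the right of their squares, whereas for interferon genes the symbols lie together and for ribosomal proteins both lie left of 0.

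For cell division the 2 gates could not be told apart gene by gene. Of 40 cell cycle genes, 10 rose in cTregs and 0 were called in eTregs, and the interaction was called for 0, although it was below 0 for 39. With the eTreg libraries paired 21 rose in cTregs and still 0 were called in eTregs, and the interaction was called for 0, against 2 with a replicate block over the 12 libraries. The medians were 0.852 in cTregs and 0.141 in eTregs, and the interval lay within 1.5-fold for 6 of the 40. Summed over the list, the libraries ranged from 1060 to 1280 CPM in WT cTregs, 1350 to 2140 in KO cTregs, 881 to 1280 in WT eTregs and 921 to 1460 in KO eTregs. Mki67, a proliferation marker chosen after its values were seen, stood at 151, 120.2 and 126 CPM in WT cTregs, 225, 396 and 339 in KO cTregs, 120.0, 236 and 149 in WT eTregs, and 126, 305 and 209.8 in KO eTregs. KO and WT did not overlap in cTregs. In eTregs their ranges overlapped, while KO was above WT in each of the 3 same-numbered pairs, as it was for 14 of the 40 cell cycle genes (35%) and 25.3% of all tested genes. The interaction was -0.93 ± 0.53 (edgeR adjusted p 0.438), or -0.96 ± 0.31 with the eTreg libraries paired (edgeR adjusted p 0.171), where the eTreg change was 0.32 ± 0.22 (edgeR adjusted p 0.494). By contrast, the interval lay within 1.5-fold for all 37 genes of the nuclear-encoded respiratory chain and for all 18 of MHC class I and the immunoproteasome, against 60.8% of all tested genes. No member of either list had a called interaction, against 3% lower and 0.803% higher among all tested genes. Of the 37, 1 rose and 1 fell in cTregs and 1 fell in eTregs. Of the 18, 6 rose in cTregs and 0 were called in eTregs, so these bounds mostly cover genes without a called change.

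The same comparison in linear CPM answers how far the CPM level rose or fell in each gate, and gave other genes. By limma on CPM, 308 genes had a higher interaction (2.47%) and 208 a lower one (1.67%), and the median over all tested genes was 0.203 CPM. Of these 516 genes, 216 were also called on the log2 scale with the same sign and 3 with the opposite sign. The interaction was called on the linear scale alone for 297 genes and on the log2 scale alone for 255. Left-out libraries moved the higher count to 187 (without WT cTreg replicate 1), 181 (without WT cTreg replicate 3) and 190 (without KO cTreg replicate 2), and the lower count to 109 (without KO cTreg replicate 2), 114 (without KO cTreg replicate 3), 136 (without KO eTreg replicate 3) and 327 (without KO eTreg replicate 2). With the eTreg libraries paired the lower count was 315.

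The 3 genes of opposite sign were Tigit, Il1r2 and Tshz2, the last named here because of its values. Tigit gained 56.8 CPM in cTregs and 83.7 in eTregs, so that its linear interaction was 27.0 ± 5.51 (SE) CPM (limma adjusted p 0.00985) beside a log2 interaction of -2.73. Il1r2 gained 15.9 CPM in cTregs and 56.3 in eTregs (linear interaction 40.4 ± 7.19, limma adjusted p 0.00919) beside -2.25. Tshz2 had a linear interaction of 7.13 CPM and a log2 interaction of -1.67. In each the fold was larger in cTregs, which started from the lower level, and the gain in CPM was larger in eTregs. Cxcr3 was lower on both scales, with gains of 82.4 and 34.7 CPM and a linear interaction of -47.8 ± 7.48 (limma adjusted p 0.00376). Prdm1 gained 29.7 and 33 CPM, and its linear interaction of 3.31 ± 6.12 was not called (limma adjusted p 0.823).

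Many same-fold falls were losses of different size in CPM. Of the 225, 193 had a WT cTreg mean above the WT eTreg mean, and 69 had a higher linear interaction. In 69 of these 69 the WT cTreg mean was the higher one. That follows largely from the class, since at like folds the gate with the higher level loses more CPM. Of the 223 genes that were higher on the linear scale and not called on the log2 scale, 203 had fallen in cTregs. Ccr7, the lymph node homing receptor, stood at 342, 311 and 319 CPM in WT cTregs, 219.6, 198 and 221 in KO cTregs, 73.0, 85.9 and 72.8 in WT eTregs, and 60.2, 51.8 and 55.7 in KO eTregs. KO lay below WT in both gates. It lost 111 CPM in cTregs and 21.4 in eTregs (linear interaction 89.5 ± 13.6, limma adjusted p 0.00158), at folds of 0.657 and 0.723. Lrrc32 lost 198 and 97.3 CPM (linear interaction 100.6 ± 17.1, limma adjusted p 0.00627), and Foxp3 lost 166 and 68.6 CPM (linear interaction 97.3 ± 16.2, limma adjusted p 0.00266).

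Bach2, a repressor that keeps T cells resting, had a linear interaction of 75.5 ± 13.9 CPM (limma adjusted p 0.00631) at folds of 0.63 and 0.685. The linear interaction of the 47 ribosomal protein genes ranged from 14.5 to 309 CPM and was called for 20, reaching 309 ± 52 for Rpl12 (limma adjusted p 0.00277). Rn45s had the highest linear interaction of all named genes, 69100 ± 9680 CPM (limma adjusted p 0.00109). Igfbp4, a secreted binder of insulin-like growth factors listed here with resting T cell genes, averaged 702.5 CPM in WT cTregs and 140.0 in KO cTregs, and 17.8 and 2.69 in eTregs. Its linear interaction was 547 ± 97.9 CPM (limma adjusted p 0.0197), while its log2 interaction was -0.41 ± 0.62 with an interval of -1.84 to 1.01 (edgeR adjusted p 0.792), too wide to place it. Malt1, a scaffold of antigen receptor signalling, was a same-fold rise (1.47 and 1.58) that gained 56.1 CPM in cTregs and 174 in eTregs (linear interaction 118 ± 17, limma adjusted p 0.00133).

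Conversely, 237 genes were lower on the log2 scale without a linear call. The WT cTreg mean was below the WT eTreg mean in 235 of them and under 10 CPM in 135. Bcl2 and Ctsw were higher on both scales, with linear interactions of 212 ± 23.3 (limma adjusted p 0.000191) and 68.5 ± 8.23 CPM (limma adjusted p 0.00155). Tnfsf11 was lower on both, with a linear interaction of -39.3 ± 5.95 CPM (limma adjusted p 0.00204). Of the 188 genes that rose only in cTregs, the KO cTreg mean lay between the WT cTreg and WT eTreg means for 125. It did so for 54 of the 75 rises with a larger fold in cTregs and for 148 of the 225 same-fold falls. Among the 8879 genes called in neither gate it did so for 4097. The same libraries enter the classes, so these counts are given as a description only. Of the 75 genes that rose in both gates with a larger fold in cTregs, the gain in CPM was larger in cTregs for 43.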

How the data were processed

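Bulk RNA was measured in 12 libraries of sorted mouse Tregs, 3 in each of 4 groups named by the sample titles. Per the labels' protocols, RNeasy columns were used for the RNA and a KAPA HyperPrep kit with ribosomal RNA removal (RiboErase) for the libraries. The authors deposited 1 table of raw counts, whole-number counts of reads per gene symbol. The submitters' processing notes name HISAT2 2.2.1, Cell Ranger and the build mm10, with no role stated. No label or header says which program counted the reads, on which annotation or whether by strand, so reads of overlapping, antisense and near-identical genes cannot be told apart. Library totals ran from 14567313 to 19121577, which limits precision for genes of few counts.

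The filterByExpr filter, TMM factors and a robust quasi-likelihood fit (glmQLFit, glmQLFTest) of edgeR 4.0.16 in R 4.3.3 were applied to the 12 libraries together, with p adjusted by Benjamini-Hochberg over 12461 genes and called under 0.05. The linear interaction was tested with limma 3.58.1 on TMM-normalised CPM, weighted by the inverse of the negative binomial variance at each group's mean. Classes used 95% intervals and a bound of 1.5-fold. The cTreg and eTreg changes share no library, but each shares its libraries with the interaction. Each library was pooled from 2 to 3 mice, and the sources used here do not say whether libraries of different groups share mice. Replicates differed by more than sampling noise (chi-square per degree of freedom 3.68 to 10.3).

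Same-numbered WT and KO eTreg libraries deviated together (correlations of 0.257, 0.341 and 0.166 across genes), and no other pair of groups did so for all 3 numbers. They were treated as paired in an alternative with a replicate block, chosen after the data were seen. The labels do not say what a number shares. Both tests of the interaction and the class of same-fold rises were tried on simulated data. Of 100 changes of 1.5-fold in cTregs alone the log2 test recovered 69 and the linear test 66. Of 100 changes of 2-fold they recovered 100 and 91. Of 100 rises shared by both gates, 78 at 1.5-fold and 91 at 2-fold were classed as same-fold. The other classes were not scored.

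The comparison, the gene lists and the rules were chosen with earlier results of these data known. Named genes had a mean log2 CPM of at least 3, without predicted genes, receptor segments or pseudogenes. They were the 12 lowest and 12 highest interactions whose 9 KO minus WT differences did not overlap between gates, the extremes of each class (6 or 8 a direction) and of the linear interaction (6 a direction), genes of opposite sign on the 2 scales, up to 2 members of each list in each direction and up to 2 that changed by the same fold, and Il2ra and Foxp3. Some genes that the rule names are not reported here. A further 23 genes were named after their values were seen: Penk, Tnfsf11, Cd226, Ptger4, Lpp, Dennd4a, Gzmb, Lag3, Pdcd1, Ahr, Gata3, Cish, Socs1, Socs2, Myc, Mki67, Il2rb, Ikzf2, Tcf7, Cd28, Cd44, Batf and Tshz2. Coordinates come from GENCODE vM21 (mm10), matched by symbol for 11919 tested genes, and promoters from RefSeq. Alternatives were DESeq2 1.42.0 size factors and Wald test, limma-voom, limma-trend on log2(CPM + 1), other filters, library size without Rn45s, other bounds, replicate blocks and leaving out each library. The fit with library size without Rn45s also used no TMM factors, so it differed from the main fit in both respects.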

Additional observations from a re-analysis of the deposited data

Results flagged for a closer look

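The effect of CD25 loss differed between the gates, by the test of the interaction, for 78 of the named genes. Their log2 interactions are given by function, with a value below 0 where KO eTregs rose less or fell more than KO cTregs. Among transcription factors the interaction was -2.50 for Cebpa, -2.10 for Tbx21, -1.70 for Maf, -1.20 for Prdm1, -1.17 for Ahr, -0.82 for Irf4, -0.63 for Batf, -0.54 for Nfatc1 and -0.44 for Gata3. For Irf4, Ahr, Gata3 and Nfatc1 a rise was called only in cTregs, and Tbx21, Prdm1 and Batf rose in both gates.

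Among inhibitory and follicular receptors it was -3.13 for Cd22, -2.83 for Klrg1, -2.73 for Tigit, -2.25 for Il1r2, -1.51 for Lag3 and -0.83 for Pdcd1. Cd22 is best known from B cells, whose summed markers were lower in KO than in WT of both gates, and their part in its values was not tested. The calls of Cd22 and Klrg1 were lost in 12 and 11 of 21 alternatives, with adjusted p of up to 0.186 and 0.197, and the call of Cd22 was lost with the eTreg libraries paired (adjusted p 0.0878). For chemokine receptors the interaction was -2.94 for Cxcr6, -2.60 for Ccr2 and -2.52 for Cxcr3.

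Costimulatory and cytokine genes had interactions of -1.54 for Icos, -1.44 for Tnfsf14, -1.26 for Tnfsf11, -1.07 for Penk, -0.72 for Cd226, -0.58 for Il12rb1, -0.55 for Ptger4, -0.49 for Cd28 and -0.39 for Tnfsf10, against 0.40 for Il10rb and 0.43 for Tnfrsf18. Adhesion and guidance genes had -2.31 for Sema6d, -1.80 for Nav2, -1.80 for Alcam, -1.51 for Itgae, -1.39 for Itgb1, -0.67 for Cd44 and -0.30 for Sema4b, against 0.40 for Pecam1 and 0.79 for Lpp. The call of Sema6d was lost by limma-voom (adjusted p 0.0684). These genes are given because their interaction was called, so their signs are no tally of such genes. On the whole lists 7 of 19 costimulatory and TNF receptor genes, 4 of 24 other cytokine receptors and 6 of 20 integrin and adhesion genes had a lower interaction.

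Genes of apoptosis and of cytotoxic granules were found on both sides. The interaction was -1.19 for Bcl2a1d, -0.77 for Casp4 and -0.76 for Pmaip1, against 0.37 for Casp8 and 0.52 for Bcl2. It was -1.97 for Nkg7 and -1.22 for Cst7, against 0.40 for Lamp1 and 1.36 for Ctsw.

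Of the calcium-binding and metabolic genes, S100a6 had -2.04, S100a11 -1.60, Pgam1 -0.58, St6gal1 -0.42, Adcy7 -0.41 and Ucp2 -0.30, while Eno3 had 0.63, Smox 0.78 and Atp1b1 0.90. The call of Eno3 was lost in 12 of 21 alternatives, among them the eTreg libraries paired (adjusted p 0.0503), the replicate block over 12 libraries (0.0501), library size without Rn45s (0.054) and limma-voom (0.0553), and its adjusted p reached 0.132. The Treg genes Ikzf4 and Gpr83 had 0.60 and 1.01. The remaining lower values were -2.86 for Asb2, from 8, 16 and 3 reads in the WT cTreg libraries, -2.30 for Angptl2, -2.15 for Plekhg3, -1.67 for Tshz2, -1.57 for Crybg3 and -0.45 for Ptprs. The remaining higher values were 0.38 for Peak1, 0.43 for Vopp1, 0.54 for Dennd4a, 0.67 for Tmem64, 0.76 for Tfpi, 0.87 for Fam46a, 0.88 for Enpp4, 0.94 for Zfp608, 1.05 for Fsd1l, 1.06 for Rcn1, 1.11 for Nol4l, 1.11 for Apol9b, 1.20 for Osgin1 and 1.21 for Gpr34.

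The calls of 23 of these genes were lost on leaving out at least 1 library. They were Adcy7, Ccr2, Cd22, Eno3, Enpp4, Fam46a, Fsd1l, Gpr34, Gpr83, Itgae, Klrg1, Nkg7, Pdcd1, Pgam1, Pmaip1, S100a6, Sema4b, St6gal1, Tmem64, Tnfrsf18, Tnfsf10, Ucp2 and Vopp1. By library, 21 calls were lost without KO cTreg replicate 2, 19 without KO eTreg replicate 3, 18 without WT cTreg replicate 3 and 16 without KO cTreg replicate 3, against 2 without KO eTreg replicate 2. Their values kept their sign in each of these fits.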

How the results depend on the processing

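The count of log2 interactions was 474, against 484 with DESeq2 size factors, 536 with library size without Rn45s, 624 by the DESeq2 Wald test, 369 by limma-voom, 558 with a replicate block over 12 libraries and 590 with the eTreg libraries paired. The 2 block fits shared 446 and 453 genes with it. Leaving out 1 library gave 254 to 432 lower and 60 to 138 higher interactions, 2534 to 3490 cTreg calls and 455 to 890 eTreg calls. The share of lower interactions ran from 75.2% to 85.1% over all settings, and that of higher ones in linear CPM was 59.7%, or 50.6% with library size without Rn45s, which moved the median log2 interaction of all genes to -0.033. That setting also left out TMM scaling, and the part of each was not tested. No named interaction changed sign on being called.

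Of the 78 named interactions 53 kept their call under all 21 alternatives and 25 did not. Same-fold rises numbered 117 with library size without Rn45s and 106 with the narrower bound tried, which gave 104 same-fold falls and 102 cTreg-only rises. A larger fold in eTregs was found for 2 genes without Rn45s, 2 by the DESeq2 Wald test, and 1 each without a filter and with the block over 12 libraries. The eTreg-only class held 11 genes by the DESeq2 Wald test, 14 by limma-trend and 10 with the eTreg libraries paired, which gave 14 opposite genes and 315 lower linear interactions (341 with the block over 12 libraries). Leaving out 1 library gave 129 to 235 cTreg-only rises, 35 to 91 cTreg-only falls, 106 to 185 same-fold rises, 108 to 223 same-fold falls, 49 to 120 larger folds in cTregs, 0 to 1 in eTregs, 3 to 12 eTreg-only and 2 to 12 opposite genes, and 181 to 356 higher and 109 to 327 lower linear interactions. The cause of these shifts was not tested. Genes of few counts, such as Asb2 and Gzmb in WT cTregs, have wide intervals.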

Other observations

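Among the lists outside the functions described above, glycolysis was divided: of 22 genes, 9 rose and 5 fell in cTregs, 1 rose and 1 fell in eTregs, and 1 interaction was called in each direction. Of 31 genes of tRNA charging and amino acid supply, 2 rose and 8 fell in cTregs and 0 rose and 2 fell in eTregs. Slc7a5, a carrier of large neutral amino acids, fell by the same fold, to 0.611 and 0.716 of WT (interaction 0.23, interval -0.10 to 0.55, edgeR adjusted p 0.5). Of 8 GIMAP GTPases, 0 were called in cTregs and 2 rose in eTregs, with no called interaction. Beside these lists, 14.8% of all tested genes rose and 12.6% fell in cTregs, and 3.25% rose and 3.4% fell in eTregs. The interaction was lower for 3% of all tested genes and higher for 0.803%.

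Gzmb, which encodes granzyme B and was chosen after its values were seen, had wide intervals. It stood at 0.802, 0.721 and 0.615 CPM in WT cTregs (10, 10 and 8 reads), 12.8, 21.5 and 25.7 in KO cTregs, 5.99, 11.2 and 7.47 in WT eTregs, and 18.1, 45.8 and 36.6 in KO eTregs. Its interaction of -2.79 ± 0.83 missed the threshold (edgeR adjusted p 0.122), and it passed with the eTreg libraries paired (adjusted p 0.0148) and by the DESeq2 Wald test (0.000618).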
